A study of Mus musculus with 2148 samples.

Results

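The genes described are 9 that cortical thymic epithelial cells (cTEC) are known to use to support developing T cells or are recognised by: Foxn1, Dll4, Il7, Kitl, Ccl25, Cxcl12, Ly75, Enpep and Tbata. They were chosen as a list of Notch ligand, cytokine, chemokine and cTEC identity genes, and were found by symbol through their Ensembl identifiers, 9 of 9, among the 48437 genes of a table of raw read counts. The counts come from single thymic epithelial cells of C57BL/6 mice, sequenced by RamDA-seq, a plate method that copies total RNA along its whole length. Cells were sorted as live CD45-negative, EpCAM-positive cells, either Ly51-positive (cTEC) or Ly51-negative with high or low MHC class II (medullary cells, mTEChi and mTEClo). The comparisons ask how the 9 genes differ between cTEC and mTEC and between newborn and adult mice.

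The 8 groups were adult wild-type (WT) cTEC (3.89% of the cells, 6 weeks, male), newborn WT cTEC (7.02%, 1 day, sex unknown), adult WT mTEChi (31.3%), newborn WT mTEChi (8.64%), adult WT mTEClo (18.03%), newborn WT mTEClo (6.26%), and adult AireKO mTEChi (17.1%) and mTEClo (7.78%), both from 5-week males deficient in Aire, a transcriptional regulator of mature mTEC. Cells of one group with the same age and sex label were summed into a mouse pool. Adult WT mTEChi had 4 pools (4-week female and 4-, 5- and 6-week male, of which the 5-week pool held 12 cells), adult WT mTEClo had 3 (4-, 5- and 8-week male, the first with 66 cells), and each of the other 6 groups had 1, which gave 13 pools in all. The labels give no mouse number, so a pool may hold several mice, and p-values measure the spread between these pools or plates, which may be technical. All newborn cells came from 5 plates that each held all 3 sorts, while adult cTEC filled 1 plate that held no other sort.

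As background, cTEC form the outer region of the thymus, where progenitors from the blood become T cells. Foxn1 is the transcription factor that thymic epithelium depends on. Dll4 is the Notch ligand that sets progenitors on the T cell path, Il7 and Kitl (stem cell factor) are cytokines for early thymocytes, and Ccl25 and Cxcl12 are chemokines that draw in and hold progenitors. Ly75 (the endocytic receptor DEC-205) and Enpep (the peptidase whose surface protein is Ly51) are classical cTEC surface markers, and Tbata is a thymic stromal gene. Because the sort selected cells by Ly51, the difference of Enpep between cTEC and mTEC was set by the gate, and it is given below only as a description.

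Promoter windows of 250 bases before the RefSeq transcription start (GRCm38.p6) were read for 8 of the 9 genes, with 2 windows for Ccl25. No annotated transcript start was found for the Foxn1 window. The Kitl window reaches past the gene start given below (100015630), and its GACGC match lies past it. The windows were searched on both strands for the FOXN1 core letters GACGC. The windows of Enpep, Cxcl12, Ccl25 and Kitl held GACGC, which is 4 genes of 8 (9 windows). Of all 32851 windows of that length 22.6% held it as well. A search for the TATA box, again on both strands, looked for the letters TATAAA. Enpep, Kitl and the second window of Ccl25 held it, against 12.4% of all windows. A match is a description of the letters and was not tested as a binding site. Both chemokine genes and Kitl are shown because they code for the secreted or surface factors with a match, printed 5′ to 3′ on the strand of the gene with the match in capitals, which for Cxcl12 is the reverse complement.
Cxcl12, chr6:117168285-117168534, plus strand: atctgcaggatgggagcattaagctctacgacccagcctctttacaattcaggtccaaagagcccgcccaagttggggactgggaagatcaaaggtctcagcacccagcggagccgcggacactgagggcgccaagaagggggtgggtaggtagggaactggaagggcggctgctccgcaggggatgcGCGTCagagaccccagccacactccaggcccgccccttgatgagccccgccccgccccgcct
Ccl25, chr8:4324960-4325209, plus strand, first window: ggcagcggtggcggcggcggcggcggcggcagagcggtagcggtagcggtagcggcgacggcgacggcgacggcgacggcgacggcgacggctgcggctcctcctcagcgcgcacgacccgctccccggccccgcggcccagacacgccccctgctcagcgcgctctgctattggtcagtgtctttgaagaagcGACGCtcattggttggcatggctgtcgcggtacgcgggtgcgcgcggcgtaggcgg
Kitl, chr10:100015571-100015820, plus strand: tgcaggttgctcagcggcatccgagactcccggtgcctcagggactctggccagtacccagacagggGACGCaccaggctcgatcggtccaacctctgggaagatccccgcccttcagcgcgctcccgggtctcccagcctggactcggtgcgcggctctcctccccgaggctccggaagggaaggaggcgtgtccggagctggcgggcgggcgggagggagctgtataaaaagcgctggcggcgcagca

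The genes lie at the following places of GRCm38. The regulator is Foxn1 (ENSMUSG00000002057, chromosome 11, 78357577 to 78386558, minus strand). The ligand and cytokines are Dll4 (ENSMUSG00000027314, chromosome 2, 119325784 to 119335962, plus strand), Kitl (ENSMUSG00000019966, chromosome 10, 100015630 to 100100416, plus strand) and Il7 (ENSMUSG00000040329, chromosome 3, 7569994 to 7613760, minus strand). The chemokines are Ccl25 (ENSMUSG00000023235, chromosome 8, 4325210 to 4360020, plus strand) and Cxcl12 (ENSMUSG00000061353, chromosome 6, 117168535 to 117181367, plus strand). The identity genes are Ly75 (ENSMUSG00000026980, chromosome 2, 60292103 to 60383303, minus strand), Tbata (ENSMUSG00000020096, chromosome 10, 61171954 to 61188841, plus strand) and Enpep (ENSMUSG00000028024, chromosome 3, 129269175 to 129332720, minus strand). Counting ignored strand, so reads could not be told apart where exons of another gene overlap. This touched 5.56% of the exon bases of Dll4 (shared with Gm14207), 3.61% of Ly75 (Gm13571), 2.74% of Ccl25 (Elavl1) and 1.85% of Il7 (Gm16685), and none of the other 5.

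Depth ranged from 203010 to 1823784 reads per cell with a median of 692880, and median depth per group lay between 532926.5 (AireKO mTEClo) and 862537 (adult cTEC). Every member passed the filter on low counts in each fit, with 76227 (Enpep) to 522198 (Tbata) reads over all cells. The gene targeted in the knockout, Aire, was at 26.1 CPM in AireKO mTEChi against 1109.7 to 1844.6 in the WT mTEChi pools. The cells labelled cTEC had their defining genes: the cTEC proteases Psmb11 and Prss16 were at 732.4 and 1765.6 CPM in adult cTEC and at 915.6 and 1859.4 in newborn cTEC. Only 67.5% of adult cTEC had 5 or more Psmb11 reads once each cell was thinned to 200000 reads, against 93.5% of newborn cTEC. Newborn mTEClo had a share of 74.2%, above adult cTEC, so Psmb11 did not set this sort apart from cTEC. The 6 markers of immature mTEC summed to 1027.2 CPM in newborn mTEClo and 864.9 to 3760.1 in the adult WT mTEClo pools. Of these, Ccl21a had 5 or more thinned reads in 14.5% of newborn and 61.3% of adult WT mTEClo. A list of 13 thymocyte markers summed to 482.9 CPM in adult and 144.9 in newborn cTEC. The adult WT mTEChi pools had 61.8 to 205.2 and the adult WT mTEClo pools 32.4 to 98.2. Newborn mTEChi had 130.9 CPM and newborn mTEClo 33.4, and all 13 had reads in every group. Markers of mesenchyme (7 genes), endothelium (5) and myeloid or B cells (6) summed to 116.5, 14.5 and 23.9 CPM in adult cTEC and to 52.1, 8.07 and 21.6 in newborn cTEC, with Cdh5 at 0 reads in adult cTEC. The 4 epithelial markers were at 2466 and 2980.2 CPM. By the genes of the sex chromosomes, the 12 cells of the 5-week male mTEChi pool carried 169.2 CPM of Xist, and the other male-labelled adult pools had 1.62 to 35.9. The 12 cells also carried the Y-linked Ddx3y (32.7 CPM), Eif2s3y (65.5), Kdm5d (37.9) and Uty (63.1). The female pool had 1187.4 CPM of Xist and 0.371 or less of each Y-linked gene. The sex label of the 12-cell pool is thus uncertain, and results are given without this pool where it decides a call.

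Levels are given as CPM (reads per 1000000 reads counted on genes) of each pool. A comparison passed when the quasi-likelihood test of edgeR, fitted over all genes, gave p under 0.05 after Benjamini-Hochberg adjustment with a fold of 2 or more. Log2 fold changes are given with their standard error (SE). The 13-pool fit had 5 residual degrees of freedom, and groups of 1 pool were assumed to vary like the others. Newborn sorts were compared over plates, with plate as a block (15 sums, 8 residual degrees of freedom). In summed cells, fewer cells of a type and less RNA per cell cannot be told apart. Per kilobase of exon, which allows genes to be compared, adult cTEC held 375.3 CPM of Tbata, 210.3 of Ly75, 151.3 of Cxcl12, 101.4 of Foxn1, 86.3 of Ccl25, 83.5 of Enpep, 52.8 of Dll4, 50.7 of Il7 and 27.3 of Kitl. Newborn cTEC also had most of Tbata (416.5 CPM per kilobase) and least of Kitl (30.2), with Foxn1 in second place at 199.7.

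**Figure D1:**
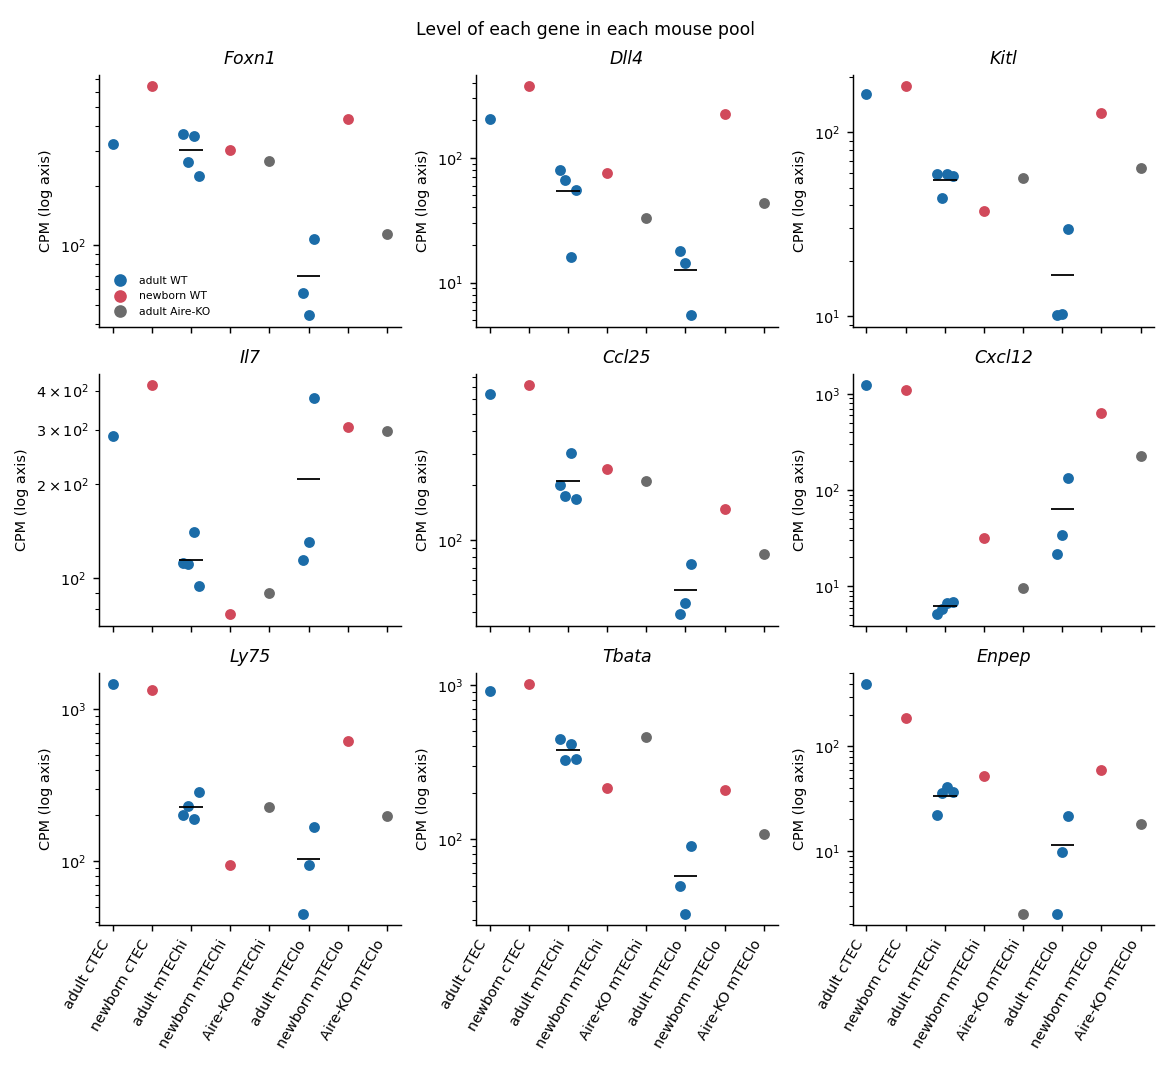
Level of each of the 9 genes (CPM, log axis) in each of the 13 mouse pools, by group on the horizontal axis. Each point is 1 pool and a line marks the mean of a group with several pools. Cxcl12 separates the cTEC pools (1237.3 and 1099.6 CPM) from the adult mTEChi pools (5.11 to 6.95 CPM), while Foxn1 in adult cTEC (325.9 CPM) lies within the adult mTEChi pools.

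Foxn1 was highest in newborn cTEC and newborn mTEClo and did not separate adult cTEC from adult mTEChi. Its level was 325.9 CPM in adult cTEC and 641.9 in newborn cTEC. The adult mTEChi pools had 365.1, 263.6, 358.9 and 225.3 CPM (4-week female, then 4-, 5- and 6-week male), newborn mTEChi 302.5 and AireKO mTEChi 268.8. The adult mTEClo pools had 57.5, 44.2 and 107.97 CPM (4, 5 and 8 weeks), newborn mTEClo 436.5 and AireKO mTEClo 114.3. Adult cTEC thus fell inside the range of the 4 adult mTEChi pools (303.2 ± 69.7, SD) and above the 3 mTEClo pools (69.9 ± 33.7, SD), and newborn mTEClo lay above adult cTEC. In order, newborn cTEC came first and newborn mTEClo second, adult cTEC, adult mTEChi, newborn mTEChi and AireKO mTEChi followed with values within the range of the adult mTEChi pools, and AireKO and adult WT mTEClo were lowest. Against all adult mTEC the log2 fold change of adult cTEC was 1.30 ± 0.44 (SE), adjusted p = 0.266, and against mTEChi alone 0.37 ± 0.50, adjusted p = 0.695, neither of which passed. The newborn plates gave 630.5, 593.3, 777.99, 607.003 and 666.5 CPM in cTEC, 424.6, 578.01, 531.9, 394.01 and 283.4 in mTEClo and 245.2, 315.3, 315.7, 378.7 and 290.7 in mTEChi, in plate order (16 to 20). All 5 cTEC plates were above all plates of either mTEC sort, and the difference passed against mTEChi (1.14 ± 0.18, adjusted p = 4.26e-04) but had a fold below 2 against both mTEC sorts together (0.94 ± 0.15, adjusted p = 0.00106).

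Dll4 had the same order at its top but was lower in every mTEChi pool than in cTEC. Adult cTEC held 203.3 CPM and newborn cTEC 377.2. Adult mTEChi pools held 79.996, 66.6, 16.02 and 55.4 CPM, the lowest in the 12-cell pool, newborn mTEChi 76.2 and AireKO mTEChi 32.9. Adult mTEClo pools held 17.8, 14.4 and 5.47 CPM, newborn mTEClo 224.05 and AireKO mTEClo 43.2. Newborn mTEClo was therefore above adult cTEC and more than 10 times the level of each adult mTEClo pool. The 8-week adult mTEClo pool was the lowest of its group for Dll4 and the highest for the other 8 genes. The adult cTEC difference was 3.13 ± 0.59 on the log2 scale against all mTEC but missed the threshold (adjusted p = 0.0645), and it passed without the 12-cell pool. Among newborn cells the plates gave 391.9, 332.9, 488.2, 404.7 and 301.2 CPM in cTEC, 191.99, 307.1, 297.8, 203.99 and 129.6 in mTEClo and 30.8, 124.3, 63.1, 86.7 and 96.9 in mTEChi. The cTEC and mTEClo plates touched, with the highest mTEClo plate above the lowest cTEC plate, and that difference did not pass (0.97 ± 0.31, adjusted p = 0.0895), whereas newborn cTEC exceeded mTEChi (2.37 ± 0.33, adjusted p = 2.25e-04).

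The cytokine genes differed from each other. Kitl was at 161.6 CPM in adult cTEC, 178.4 in newborn cTEC and 126.7 in newborn mTEClo. Adult mTEChi pools had 59.3, 43.8, 59.1 and 57.8 CPM, newborn mTEChi 37.4, AireKO mTEChi 56.4, adult mTEClo pools 10.1, 10.3 and 29.8 and AireKO mTEClo 63.8. The 3 highest groups for Kitl were thus cTEC of both ages and newborn mTEClo, and every other pool was at or below 63.8 CPM, the AireKO mTEClo level. Il7 followed another order, at 416.5 CPM (73.5 per kilobase of exon) in newborn cTEC and 50.7 CPM per kilobase in adult cTEC, with the 8-week adult mTEClo pool between them at 378.4 CPM (66.8 per kilobase). The 4- and 5-week mTEClo pools had 114.4 and 130.8 CPM, AireKO mTEClo 295.97 and newborn mTEClo 306.5. The mTEChi groups were lowest for Il7, at 112.3, 110.96, 141.04 and 94.8 CPM in adult WT pools, 76.6 in newborn and 89.6 in AireKO cells, although the adult WT pools of both mTEC sorts overlapped. In adults neither cytokine passed against all mTEC (Kitl 2.55 ± 0.48, adjusted p = 0.0645, Il7 1.03 ± 0.56, adjusted p = 0.518). Newborn cTEC exceeded newborn mTEChi for both (Kitl 2.38 ± 0.39, adjusted p = 5.73e-04, Il7 2.55 ± 0.16, adjusted p = 2.87e-06). Against newborn mTEClo the plates of Kitl overlapped (155.6 to 205.7 CPM in cTEC, 83.7 to 163.4 in mTEClo, 0.74 ± 0.36, adjusted p = 0.248). For Il7 the adjusted p was 0.024 with a log2 fold change of 0.69 ± 0.16, a fold below 2, and the plates also overlapped (349.4 to 477.6 and 246.4 to 398.7 CPM).

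Both chemokine genes were higher in adult cTEC than in every mTEC pool, and of the 9 genes Cxcl12 had the largest fold change against adult mTEC. Cxcl12 was at 1237.3 CPM in adult cTEC and 1099.6 in newborn cTEC. Adult mTEChi pools held 5.11, 5.88, 6.76 and 6.95 CPM, newborn mTEChi 31.6 and AireKO mTEChi 9.58. Adult mTEClo pools held 21.8, 34.2 and 134.4 CPM, newborn mTEClo 630.4 and AireKO mTEClo 226.8. The order was therefore cTEC of either age, newborn mTEClo and AireKO mTEClo, and adult WT mTEChi was last. Newborn mTEChi lay between the 4- and the 5-week adult mTEClo pools. Adult cTEC exceeded adult mTEC by 6.10 ± 0.62 on the log2 scale (adjusted p = 0.0117) and mTEChi alone by 7.92 ± 0.78 (adjusted p = 0.00508), and Cxcl12 was the only member that passed against all adult mTEC whichever single pool was left out. Newborn cTEC exceeded newborn mTEChi (5.49 ± 0.45, adjusted p = 9.43e-06). Against newborn mTEClo the plates did not overlap (1002.98 to 1235.1 against 419.5 to 858.8 CPM), but the difference did not pass (1.06 ± 0.37, adjusted p = 0.11).

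Ccl25 was at 642.6 CPM in adult and 718.7 in newborn cTEC. It held the middle in mTEChi, with 201.7, 173.7, 302.1 and 168.5 CPM in adult pools, 245.8 in newborn and 211.98 in AireKO cells. It was lowest in mTEClo, with 38.6, 44.8 and 73.8 CPM in adult pools, 82.9 in AireKO and 147.2 in newborn cells. Newborn mTEClo was thus below every mTEChi group for Ccl25, the reverse of Cxcl12. The adult cTEC difference was 2.76 ± 0.36, adjusted p = 0.0239 against all mTEC and 3.64 ± 0.43, adjusted p = 0.0452 against mTEClo, and both passed. In newborn cells Ccl25 exceeded mTEChi by 1.61 ± 0.29 and mTEClo by 2.54 ± 0.30 (adjusted p = 9.79e-04 and 0.00139), and the cTEC plates (606.1 to 941.6 CPM) lay above all mTEC plates, of which the highest was 358.7.

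Of the identity genes, Ly75 was at 1452.2 CPM in adult cTEC and 1331.1 in newborn cTEC. Adult mTEChi pools had 201.3, 229.96, 189.5 and 282.7 CPM, newborn mTEChi 93.8, AireKO mTEChi 227.6, adult mTEClo pools 45.2, 93.9 and 168.7, newborn mTEClo 612.7 and AireKO mTEClo 198.02. Newborn mTEClo came next, well above the rest, and newborn mTEChi was below every adult mTEChi pool. Ly75 exceeded adult mTEC in adult cTEC (3.40 ± 0.45, adjusted p = 0.024) and was higher in newborn cTEC than in newborn mTEChi (3.91 ± 0.16, adjusted p = 1.55e-06) and mTEClo (1.32 ± 0.15, adjusted p = 0.00108). Tbata was at 910.5 CPM in adult and 1010.5 in newborn cTEC. Its adult mTEChi pools had 449.3, 328.4, 414.7 and 333.1 CPM, AireKO mTEChi 461.7 and newborn mTEChi 214.3, while mTEClo had 49.7, 32.98 and 90.8 in adult pools, 107.98 in AireKO and 207.4 in newborn cells. Every adult mTEChi pool was thus above every adult mTEClo pool for Tbata, and newborn mTEChi and mTEClo differed by less than the spread of their plates (149.6 to 277.2 and 123.6 to 328.9 CPM). Tbata passed against adult mTEC (2.76 ± 0.40, adjusted p = 0.0312), adult mTEClo (3.99 ± 0.48, adjusted p = 0.0472) and both newborn sorts (mTEChi 2.29 ± 0.23, adjusted p = 3.04e-05, mTEClo 2.54 ± 0.24, adjusted p = 4.79e-04). Enpep, the gate gene, was at 392.8 CPM in adult cTEC and 185.6 in newborn cTEC, with 21.9, 35.9, 40.5 and 36.3 in adult mTEChi pools, 52.5 in newborn mTEChi, 2.51, 9.70 and 21.6 in adult mTEClo pools, 59.1 in newborn mTEClo, and 2.51 and 18.2 in AireKO mTEChi and mTEClo.

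Counted over the members, adult cTEC exceeded adult mTEC for 5 of 9 (Cxcl12, Enpep, Ly75, Ccl25 and Tbata), or 4 of 8 without the gate gene, where 0.476% of all 40148 genes tested were called higher. All 9 had a positive log2 fold change, with a median of 2.76 against -0.32 over all genes tested. The members are known cTEC genes, chosen with earlier results of these data known. The counts beside the background are therefore a description and not a test of the list. Taken apart, 3 of 9 passed against mTEChi (Cxcl12, Enpep and Ly75, background 1.7%) and 2 of 9 against mTEClo (Ccl25 and Tbata, background 0.0423%). The count against all adult mTEC rested on single pools: it was 1 (Cxcl12) without any one of the 4-week female, 4-week male or 6-week male mTEChi pools, 2 without the 5-week mTEClo pool, 4 without the 4-week mTEClo pool, 6 without the 12-cell mTEChi pool and 9, or 8 of 8 without Enpep, without the 8-week mTEClo pool (background then 2.27%). The background is not given for the other pools left out, so changes in these counts cannot be read as particular to the members. Against mTEChi alone Cxcl12 was the only member left without any one of the 4-week female, 4-week male or 6-week male mTEChi pools, and against mTEClo alone none was left without the 4- or the 5-week mTEClo pool. Without the 8-week mTEClo pool, 8 of 9 passed against mTEClo alone, all but Il7 (1.33 ± 0.26, adjusted p = 0.0514), where 1.15% of genes were called higher.

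Among newborn cells, compared within plates, cTEC exceeded mTEC for 8 of 9 members, all but Foxn1, against 6.22% of 23349 genes called higher. Without the gate gene that was 7 of 8, and Foxn1 passed as well when plate 17 or plate 19 was left out. All 9 passed against mTEChi (background 13.3%) and 4 against mTEClo (Ccl25, Tbata, Enpep and Ly75, background 2%), or 8 of 8 and 3 of 8 without Enpep. Cxcl12 joined the second group when plate 17 was left out. The median log2 fold change of the members was 2.37 against mTEChi and 1.06 against mTEClo, where all genes had -0.06 and -0.01. The plates are technical units, so these p-values measure the spread between plates and not between mice. The choice of the members limits the newborn counts in the same way as the adult ones.

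**Figure D2:**
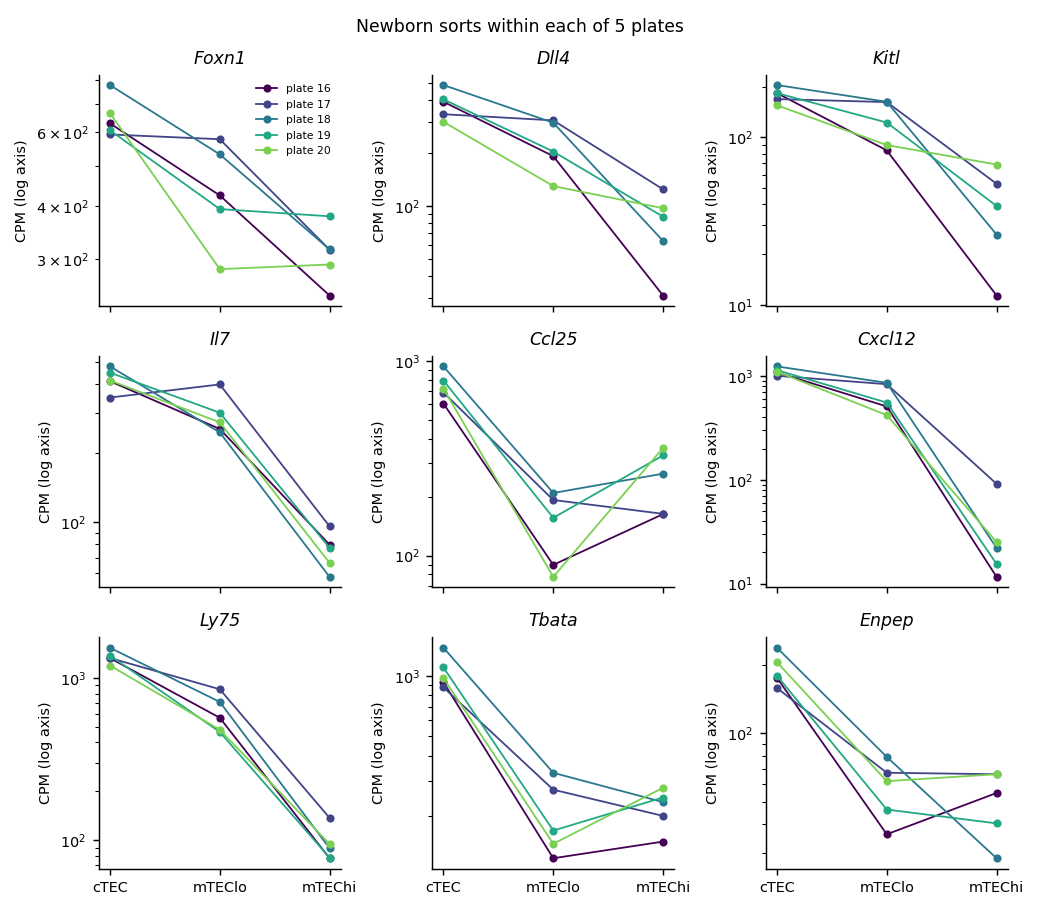
Level of each gene (CPM, log axis) in newborn cTEC, mTEClo and mTEChi, with 1 line for each of the 5 plates that held all 3 sorts. The lines fall from cTEC to mTEClo on all 5 plates for every gene but Il7 (4 of 5). From mTEClo to mTEChi, Cxcl12 drops on all 5 plates (mTEClo 419.5 to 858.8 CPM, mTEChi 11.6 to 91.3 CPM), while Ccl25 rises on 4 and Tbata on 3.

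In mTEClo the newborn pool differed from the adult pools in level, although no member passed over pools. The single newborn mTEClo pool lay above all 3 adult mTEClo pools for 8 of the 9 genes, all but Il7, for which the 8-week pool (378.4 CPM) was above it (306.5 CPM). The fitted log2 differences over pools were 4.09 ± 0.73 for Dll4, 3.16 ± 0.78 for Cxcl12, 2.78 ± 0.58 for Kitl, 2.52 ± 0.49 for Foxn1 and 2.45 ± 0.56 for Ly75 (SE), and 2.24, 1.71, 1.37 and 0.42 for Enpep, Tbata, Ccl25 and Il7. The median of the 9 was 2.45, against -0.01 over all genes tested. None passed in edgeR (adjusted p = 0.116 for Dll4, 0.144 for Foxn1 and 0.236 for Cxcl12), where 0% of the 40148 genes did. Other markers moved with these genes: the 7 other cTEC genes summed to 2375 CPM in newborn and 358.1 to 1056.4 in adult mTEClo (all 7 with a positive fold change, none called), 74.2% of newborn and 3.92% of adult mTEClo had 5 or more Psmb11 reads after thinning, and the 6 tuft cell markers, none at 0 reads, summed to 348.8 and 548.9 to 4894 CPM. Their part in the difference was not tested. At an unadjusted p under 0.05, 8 members and 10.1% of all genes differed, and DESeq2 called 5 members higher (background 2.96%).

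The 8-week adult pool decided the mTEClo comparison. It stood above the 4- and 5-week pools for every member but Dll4, with 134.4 CPM of Cxcl12 against 21.8 and 34.2, and its summed tuft cell markers were at 548.9 CPM, the lowest of the 3 pools, of which the highest had 4894. Without the 8-week mTEClo pool, 5 of 9 members passed, where 0.711% of genes were called higher: Cxcl12 (4.45 ± 0.30, adjusted p = 0.00836), Kitl (3.59 ± 0.27, adjusted p = 0.00885), Ly75 (3.10 ± 0.39, adjusted p = 0.02), Foxn1 (3.06 ± 0.34, adjusted p = 0.0162) and Tbata (2.28 ± 0.31, adjusted p = 0.0231). Dll4 then missed the threshold (3.75 ± 0.73, adjusted p = 0.0585). Over plates 8 of 9 passed (background 6.64%), all but Il7 (-0.05 ± 0.27, adjusted p = 0.969), with Dll4 first (4.43 ± 0.41, adjusted p = 5.49e-09). Age, mice and plates of the 8-week pool cannot be told apart. The newborn plates were splits of 1 pool, and 3 of the 5 adult plates were of the 8-week pool. The p-values over plates thus measure the spread between plates and not between mice. Newborn and adult cells shared no plate, so age, mice and plate cannot be told apart in this comparison either.

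In mTEChi no common direction with age was seen. The newborn pool lay inside the range of the 4 adult pools for Foxn1 and Ccl25, above all of them for Cxcl12 (31.6 CPM) and Enpep (52.5 CPM), and below all of them for Il7, Kitl, Ly75 and Tbata. Dll4 was also inside (76.2 CPM). None of the 9 passed over pools in edgeR, as 0% of genes did. Cxcl12 (2.40 ± 0.74) alone had an unadjusted p under 0.05, as had 2.08% of all genes, and DESeq2 called no member. Over plates Cxcl12 was higher in newborn mTEChi (2.39 ± 0.39, adjusted p = 7.72e-04) and Ly75 lower (-1.23 ± 0.27, adjusted p = 0.0108), where 1.91% of genes were called. Here too the newborn cells came from 1 pool and shared no plate with adult cells. For Cxcl12 1 newborn plate stood apart (91.3 CPM against 11.6 to 25.1 on the other 4). All 5 were above the highest adult pool (6.95 CPM), but the plates overlapped, since 1 adult plate sum had 11.7 CPM.

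The difference between the age effects of both mTEC sorts was tested as an interaction. It was positive for all 9 members, that is, newborn minus adult was higher in mTEClo than in mTEChi. In mTEChi newborn minus adult was below 0 for Ly75 (-1.23), Tbata (-0.80), Il7 (-0.55) and Kitl (-0.52) and above 0 for the other 5. The interaction was 3.68 ± 0.91 for Ly75, 3.58 ± 1.18 for Dll4, 3.30 ± 0.93 for Kitl, 2.51 ± 0.76 for Tbata and 2.49 ± 0.77 for Foxn1. None passed over pools in edgeR (adjusted p of 1 for each of these), although 5 had an unadjusted p under 0.05, and DESeq2 called Ly75 (background 0.449%). Over plates these 5 genes passed (Dll4 4.08 ± 0.50, adjusted p = 7.64e-06, Ly75 3.35 ± 0.42, adjusted p = 7.64e-06, Kitl 2.61 ± 0.52, adjusted p = 0.00207, Tbata 2.12 ± 0.36, adjusted p = 3.5e-04, Foxn1 2.11 ± 0.31, adjusted p = 5.32e-05), where 2.46% of all genes were called higher. Over pools 0% were called. The newborn cells of both sorts came from the same 5 plates and carry the same age label, so the 2 age effects are not independent, and the fit over plates had no block for this.

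Between newborn and adult cTEC no member passed, over the 5 newborn plates against the 1 adult plate. Adult cTEC lay below all 5 newborn plates for Foxn1 (325.9 against 593.3 to 777.99 CPM), Dll4 (203.3 against 301.2 to 488.2) and Il7 (newborn plates 349.4 to 477.6), which are the regulator, the Notch ligand and a cytokine. It lay above them for Enpep (392.8 against 158.1 to 237.4) and marginally for Cxcl12 (1237.3 against 1002.98 to 1235.1), and inside their range for Kitl, Ccl25, Ly75 and Tbata. The log2 differences, newborn minus adult, were 0.98 ± 0.42 for Foxn1 (adjusted p = 0.485), 0.89 ± 0.66 for Dll4 (adjusted p = 0.838), 0.52 ± 0.49 for Il7 and -1.07 ± 0.85 for Enpep (adjusted p = 0.859), and 0.12 for Kitl, 0.20 for Ccl25, -0.19 for Cxcl12, -0.14 for Ly75 and 0.18 for Tbata. In edgeR 0.305% of 39678 genes were called, Foxn1 was the only member with an unadjusted p under 0.05, and DESeq2 called no member. Each age is 1 mouse pool, so that age, mice and plate cannot be told apart here. Adult cTEC also had 482.9 CPM of thymocyte markers against 89.8 to 336.6 on the newborn plates, whose part in these values was not tested.

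**Figure D3:**
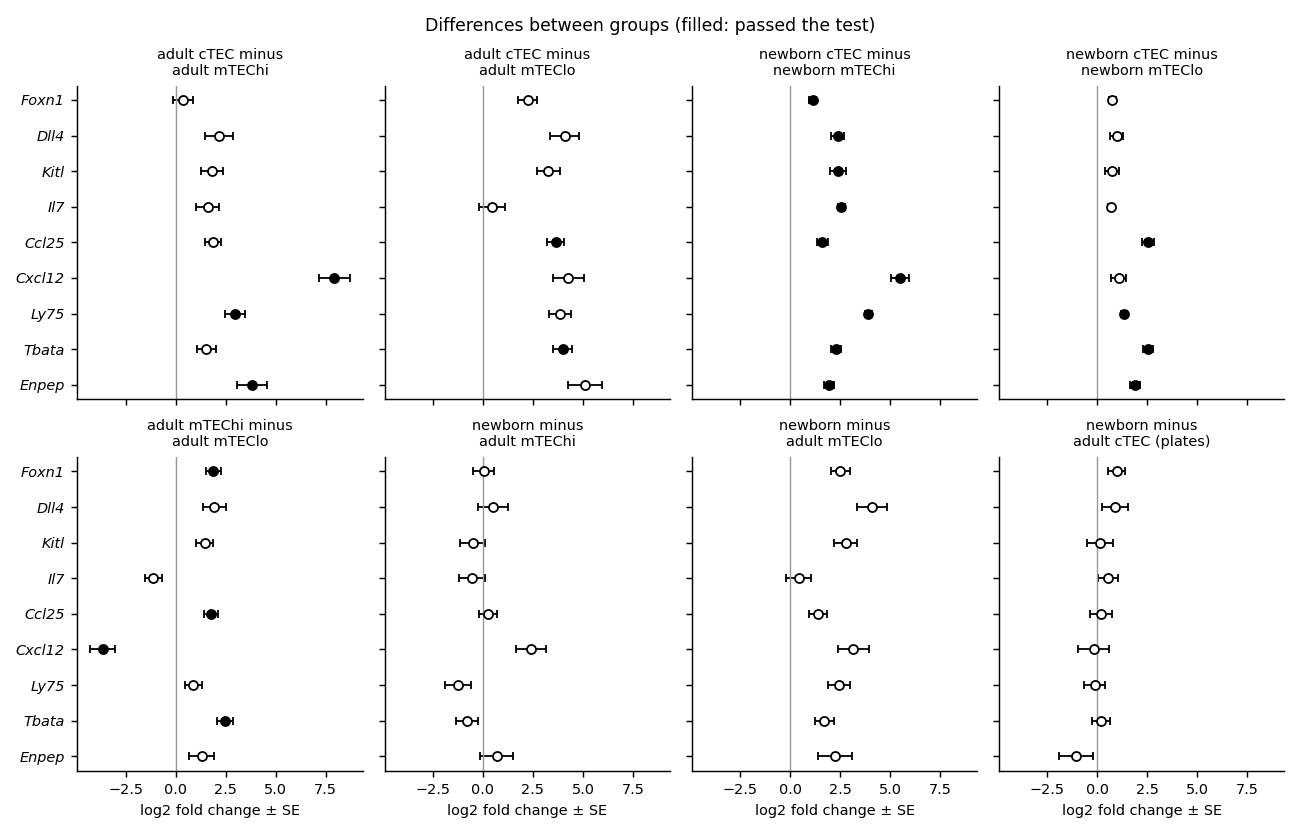
Log2 fold change of each gene with its SE in 8 comparisons, 1 panel each, filled where the test was passed. Cxcl12 reaches 7.92 between adult cTEC and mTEChi, newborn minus adult values are all positive in mTEClo (0.42 to 4.09) and unfilled, and those of cTEC lie between -1.07 and 0.98.

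Within the adult medulla 4 of the 9 members differed between the sorts. Tbata (2.47 ± 0.38, adjusted p = 0.0081), Foxn1 (1.87 ± 0.37, adjusted p = 0.0181) and Ccl25 (1.77 ± 0.33, adjusted p = 0.0147) were higher in mTEChi, and every mTEChi pool was above every mTEClo pool for each of them. Cxcl12 was higher in mTEClo (-3.65 ± 0.61, adjusted p = 0.0102), again with no overlap between pools. That made 3 members higher and 1 lower, where 7.59% of genes were called higher and 4.47% lower. Kitl (1.45 ± 0.44, adjusted p = 0.0604), Dll4 (1.93 ± 0.56, adjusted p = 0.055), Il7 (-1.12 ± 0.43, adjusted p = 0.109), Ly75 (0.88 ± 0.41) and Enpep (1.30 ± 0.62) did not pass. Without the 8-week mTEClo pool Kitl, Ly75 and Enpep passed as well, higher in mTEChi, for 7 members in all (6 higher, against 5.83% of genes), and Cxcl12 changed to -2.35 ± 0.20, adjusted p = 0.00142. Without the 5-week mTEClo pool 2 members passed, Tbata and Cxcl12, in a fit whose background is not given. Foxn1 did not pass without the 4-week mTEClo pool, and Dll4 passed too without the 12-cell mTEChi pool.

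In AireKO mice no member passed over pools in either sort. Both comparisons use the same adult WT pools as those of age. In mTEChi, where 0% of genes were called, the AireKO pool lay inside the range of the WT pools for Foxn1, Dll4, Kitl, Ccl25 and Ly75. It lay below them for Il7 and Enpep and above them for Cxcl12 and Tbata. Enpep (2.51 CPM against 21.9 to 40.5 in WT pools) had -3.47 ± 1.13, adjusted p = 0.832, the only member with an unadjusted p under 0.05, and it passed as lower in DESeq2 (background 2.09%) and over plates (-3.97 ± 0.63, adjusted p = 3.03e-04, background 4.21%). The Ly51 gate removes Ly51-positive cells from this sort in both genotypes, and its part in the Enpep difference was not tested. In mTEClo, where 0.00249% were called, the AireKO pool was above all 3 WT pools for Foxn1, Dll4, Kitl, Ccl25, Cxcl12, Ly75 and Tbata, as for Dll4 (43.2 CPM, 1.77 ± 0.74) and Kitl (63.8 CPM, 1.84 ± 0.59), the pair with an unadjusted p under 0.05. The 7 other cTEC genes summed to 1102.8 CPM in AireKO and 358.1 to 1056.4 in WT mTEClo, and 19.5% against 3.92% of cells had 5 or more Psmb11 reads after thinning, whose part was not tested. Over plates Dll4 passed (2.11 ± 0.44, adjusted p = 0.0416, background 0.0983%), and DESeq2 called no member.

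Cell by cell, the sorts differed in which of the genes reached the cTEC level. A cell was counted when its CPM was at or above the median of cTEC of the same age, which was 263.5 CPM for Foxn1, 1208.5 for Cxcl12 and only 61.6 for Dll4 in adults, where the Dll4 level of the pool was 203.3 CPM (newborn median 356.1). In adult mTEChi 41.1% of 620 cells reached it for Foxn1 (95% exact binomial interval 37.2 to 45.1%) and 22.7% for Dll4. The share was 11.3% for Ccl25, 9.19% for Il7, 8.39% for Kitl, 7.10% for Tbata and 4.84% for Ly75, and for Cxcl12 it was 0 of 620 cells (interval up to 0.593%). Foxn1 thus led the 8 genes other than Enpep in adult mTEChi, Dll4 followed at its low cut, and Cxcl12 came last. In adult mTEClo the largest share was that of Il7, 46.5% of cells, with 16.2% in the lowest pool and 64.98% in the 8-week pool, and 17.9% without that pool. Foxn1 followed at 9.52%, and Cxcl12 again had 0 cells. In newborn mTEClo 5 genes reached the newborn cTEC level in more cells than Ly75 did (7.26%): Kitl 32.3%, Foxn1 30.6%, Dll4 25.8%, Il7 25.000% and Cxcl12 18.5% of cells. Ccl25 and Tbata reached it in 3.23% and 4.84%. In newborn mTEChi no share was above 11.7%, that of Ccl25. For Enpep, which the gate selects against, the shares in adult mTEChi, adult mTEClo, newborn mTEChi and newborn mTEClo were 3.23%, 0.560%, 8.19% and 5.65%. Intervals cover counting error only, since cells of a sort share their mice and plates.

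**Figure D4:**
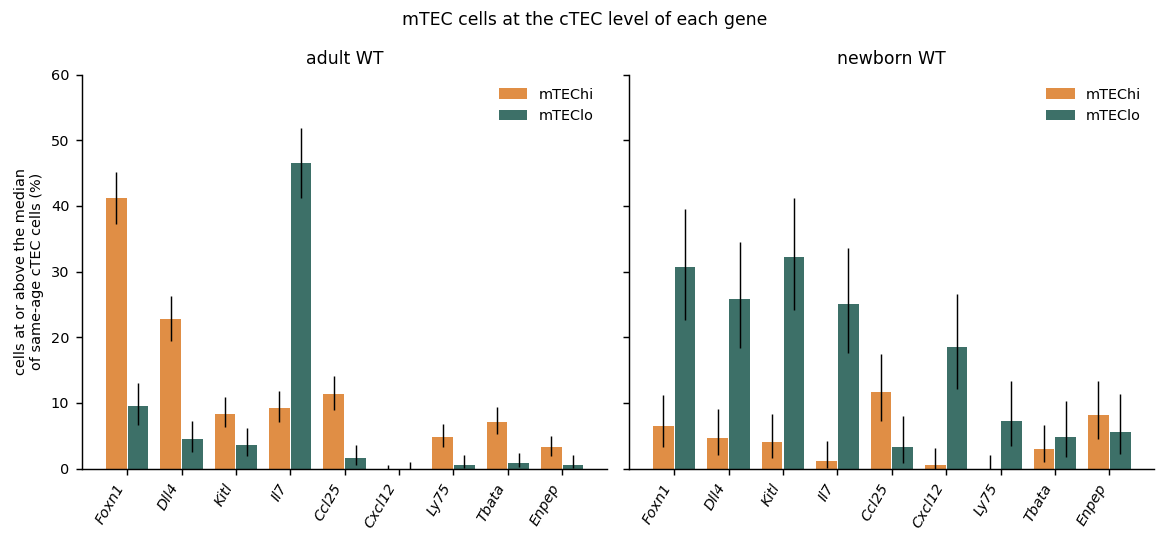
Percent of mTEChi and mTEClo cells at or above the median CPM of cTEC cells of the same age, for each gene, in adult (left) and newborn WT mice (right), with bars for the share and lines for the 95% exact binomial interval. Foxn1 is at 41.1% in adult mTEChi, and in newborn mTEClo Kitl, Foxn1, Dll4 and Il7 lie between 25.000% and 32.3%.

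The joint count, chosen after its values were seen, leaves out the gate gene and asks for cells at the cTEC median in at least 4 of the other 8 genes. It held 54.5% of adult cTEC and 58.99% of newborn cTEC. These shares are largely set by the cut, which 50.6% of adult and 50.4% of newborn cTEC reach for each gene by construction. They serve only as a reference for the mTEC shares. Among mTEC it held 10.5% of newborn mTEClo (13 cells, 0 to 20.000% by plate), 7.14% of AireKO mTEClo, 2.96% of AireKO mTEChi, 2.58% of adult WT mTEChi, 0.840% of adult WT mTEClo and no newborn mTEChi cell (interval up to 2.13%). Within cTEC the cells were uneven too, since 16.9% of adult cTEC (13 of 77) were below the median for all 8 genes. Spread of single reads was wider: a Cxcl12 read was found in 29.8% of adult mTEChi thinned to 200000 reads, but the share ran from 9.33% to 76.5% by plate and only 5.48% had 5 or more.

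Cells were also split by Psmb11, the thymoproteasome subunit of cTEC, into those with 5 or more reads after thinning and those with fewer, a split chosen after the data were seen. In adult cTEC the 52 Psmb11-positive cells summed to 286.4 CPM of Dll4 and the other 25 to 3.45. Ccl25 was at 875.3 and 83.2, and Tbata at 1259.3 and 72.05. Cxcl12 (1621.3 and 313.98), Ly75 (1945.1 and 267.1) and Foxn1 (419.3 and 101.2) were also lower in the other cells, by less. Kitl (185.9 and 103.1) and Enpep (463.7 and 222.5) were lower there by less again. Il7 had close levels in both parts, 285.9 and 289.7 CPM. The order of the genes in this split thus put Dll4 at one end and Il7 at the other.

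In newborn mTEClo Dll4 again differed most over summed cells, and Enpep least. Its 92 Psmb11-positive cells held 308.3 CPM of Dll4 against 7.84 in the other 32, 841.2 against 89.5 of Cxcl12 and 819.4 against 82.2 of Ly75, but 350.1 against 194.6 of Il7 and 62.8 against 49.5 of Enpep. Those positive cells were above adult cTEC as a whole for Dll4 and Foxn1 (548.96 CPM), near it for Kitl (162.8 CPM), and below it for Tbata (264.1) and Ccl25 (194.9). Psmb11-positive cells were 93.5% of newborn cTEC and 3.92% of adult WT mTEClo. Compared within positive cells, newborn cTEC (671.1 CPM of Foxn1, 402.6 of Dll4 and 411.8 of Il7) stayed above adult cTEC (419.3, 286.4 and 285.9), while Cxcl12 (1159.2 against 1621.3), Ly75 (1408.9 against 1945.1) and Enpep (190.3 against 463.7) were lower in newborn cTEC. Ccl25 (764.5 against 875.3) and Tbata (1068.6 against 1259.3) were lower too, the reverse of their direction over all cTEC, and Kitl was at 185.4 and 185.9. The split was not tested, because each group is 1 pool and cells are not replicates.

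**Figure D5:**
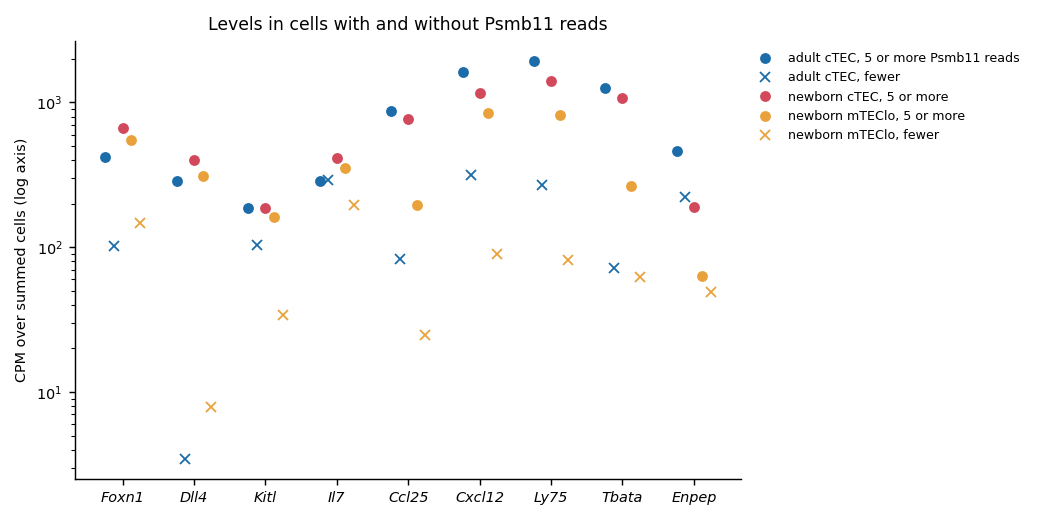
Level of each gene (CPM over summed cells, log axis) in cells with 5 or more Psmb11 reads after thinning and in the other cells, for cTEC and newborn mTEClo. Dll4 in adult cTEC drops from 286.4 to 3.45 CPM, and Il7 stays at 285.9 and 289.7.

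Among single cells the genes varied together in cTEC and newborn mTEClo but hardly in mTEChi. As a description over cells, which share mice and plates and differ in depth, the median Spearman correlation over the 36 pairs of the 9 genes was 0.47 in adult cTEC, 0.42 in newborn cTEC, 0.44 in newborn mTEClo and 0.33 in AireKO mTEClo. It was 0.25 in adult WT mTEClo, 0.04 in adult mTEChi, 0.07 in newborn mTEChi and 0.02 in AireKO mTEChi. The closest pairs of adult cTEC were Cxcl12 with Ly75 (0.90) and Ccl25 with Tbata (0.89), and Il7 stood apart, at -0.02 with Kitl and 0.02 with Dll4. In newborn mTEClo, Psmb11 correlated with Ly75 (0.81), Dll4 (0.80) and Cxcl12 (0.79). In adult mTEChi, Foxn1 and Tbata went with Aire instead (0.53 and 0.42), and in newborn mTEChi too (0.45 and 0.34).

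Other genes of the same roles were taken from fixed lists, also chosen with earlier results of these data known. Of 7 other cTEC genes, 4 passed as higher in adult cTEC than in adult mTEC, and all 7 in newborn cTEC. The 4 were Psmb11 (6.89 ± 0.91), the serine protease Prss16 (5.66 ± 0.46), Syngr1 (4.97 ± 0.75) and Cd83 (4.81 ± 0.67). Against mTEClo alone 1 of the 7 (Prss16) passed in adults and 4 in newborn cells, where 0.0423% and 2% of genes were called higher. Of 16 other Notch pathway genes only Jag2, a second Notch ligand, passed in adults (3.14 ± 0.46, adjusted p = 0.0318). In newborn cTEC Jag2 (2.22 ± 0.25), the Notch target Hey1 (1.38 ± 0.20) and the ligand Dll1 (1.26 ± 0.25, named after its value was seen) were higher. Dll3 (-2.46 ± 0.59) and the receptor Notch3 (-1.36 ± 0.36) were lower. Against mTEClo alone no gene of this list passed as higher at either age, and 2 passed as lower in newborn cTEC (background 1.66%). Jag2 differed from Dll4 in adult mTEClo, where its pools held 160.8 to 351.5 CPM, against 640.2 in adult cTEC, 674.4 in newborn cTEC and 697.01 in newborn mTEClo. Of 12 other cytokine and growth factor genes none passed in adults, and of 11 tested in newborn cells Flt3l (1.26 ± 0.24) was higher and Igf2 (-2.60 ± 0.64) and Lif (-1.44 ± 0.41) lower in cTEC. Of 10 other chemokines none passed in adults, and of 8 tested in newborn cells Cxcl14 was lower in cTEC (-4.40 ± 0.98). In adult cTEC against mTEC 0.476% of all genes were called higher and 0.219% lower, and in newborn cells 6.22% and 12.9%, and the newborn lower counts of the Notch and chemokine lists were near the background.

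Of 11 transcription factors and receptors of thymus development, Pax1 was higher in adult cTEC (3.13 ± 0.49). In newborn cTEC Hoxa3 (2.09 ± 0.29), Fgfr2 (1.91 ± 0.15), Pax1 (1.68 ± 0.18) and Trp63 (1.11 ± 0.11) were higher. Against mTEClo alone none of the 11 passed at either age. Against mTEChi alone 3 passed as higher in adult cTEC (background 1.7%) and 7 in newborn cTEC (background 13.3%). Of 6 markers of mature mTEC, Aire (-5.82 ± 0.56) and Cd80 (-2.56 ± 0.39) were lower in adult cTEC, and 5 were lower in newborn cTEC (background 12.9%). Of the 13 thymocyte markers Cd4 passed as higher in adult cTEC (3.33 ± 0.53, background 0.476%). In newborn cTEC 7 did (background 6.22%), led by Cd3e (2.91 ± 0.70) and Rag1 (2.77 ± 0.60). In adults none passed against either mTEC sort alone. Against newborn mTEChi none passed as higher and Cd4 was lower (background 23.8%), while 7 were higher against newborn mTEClo (background 2%). Of the markers of immature mTEC (6 genes), tuft cells (6), mesenchyme (7), endothelium (5), myeloid or B cells (6) and epithelium (4), none passed in adults. In newborn cTEC the epithelial keratin Krt18 was higher and 11 of these 34 genes, 32 of them tested, were lower (background 12.9%), Cldn4 and Krt14 of the immature mTEC, Trpm5 and Avil of the tuft cells, 3 of the mesenchyme, Cdh5 of the endothelium and 3 of the myeloid or B cells. No gene of these lists passed between newborn and adult cells in any sort over pools, or in cTEC over plates.

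Over the 13 pools, likeness of pattern was measured as Pearson's r of log2(CPM + 1) with 11374 protein-coding genes of at least 10 CPM on average. Pools of one group share their sort, so r describes the pattern and no p is given. The 3 genes most like Foxn1 were Arhgef40 (0.96), H2-DMa (0.95) and Egflam (0.95), and those most like Dll4 were Ltbp1 (0.95), Poldip3 (0.92) and Fmnl3 (0.92). For the cytokines they were Aldh4a1 (0.96), Adamts2 (0.95) and Nqo1 (0.94) with Kitl, and Prkd3 (0.96), Cdip1 (0.96) and Tst (0.96) with Il7. Among the chemokines, Ccl25 was closest to Ralb (0.96), Tbata (0.96) and Crip3 (0.95), and Cxcl12 to Klf15 (0.99), Pltp (0.98) and Tgfbr2 (0.98). The identity genes were closest to Aldh4a1 (0.96), Hadhb (0.94) and Inpp1 (0.92) for Ly75, Crip3 (0.98), Slc22a7 (0.97) and Slc25a42 (0.97) for Tbata and Inava (0.94), Psmc1 (0.91) and Tinagl1 (0.91) for Enpep. Within the list the closest pairs were Ccl25 and Tbata (0.96), Kitl and Ly75 (0.92) and Foxn1 and Tbata (0.91), and the least alike were Il7 and Tbata (0.11). Within the list Il7 and Cxcl12 were each closest to the other (0.86), and the other genes did not share their patterns in full. Il7 was at 114.4 to 378.4 CPM in adult mTEClo and Cxcl12 at 6.95 CPM or less in adult WT mTEChi.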

How the data were processed

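Single cells were sequenced by RamDA-seq, and the authors deposited raw read counts per gene and cell. Per their methods and processing notes, reads were trimmed (fastp 0.20.0), aligned to mm10 (STAR 2.7.3a), filtered on mapping quality (SAMtools 1.9), cleared of duplicates (Picard 2.21.1) and counted without regard to strand (HTSeq 0.11.2), and cells with over 200000 reads and 8000 genes were kept. A second deposited table of the same cells, scaled for gene length and library size, was not used. The 1980 cells (2148 sequencing samples, 168 cells with 2 runs) were grouped by the GEO labels: 77 adult and 139 newborn WT cTEC, 620 adult and 171 newborn WT mTEChi, 357 adult and 124 newborn WT mTEClo, 338 AireKO mTEChi and 154 AireKO mTEClo.

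Counts were summed per mouse pool (same group, age and sex label, 13 pools) or per plate and sort (37 sums of 26 plates), and tested with edgeR 4.0.16 in R 4.3.3 (filterByExpr, TMM, quasi-likelihood). The study's own test over single cells was not used, since cells are not replicates. Each SE is the fold change over the root of its F statistic. Alternatives were DESeq2 1.42.0, limma 3.58.1 on log2(mean CPM + 1), RLE size factors, no filter, no fold threshold, plates as units, mTEC pools alone, age and sex as a block, and each pool or plate left out. The fits were tested on simulated data. Same-numbered plates of newborn sorts did not deviate together on all plates (15 correlations, -0.12 to 0.22, median 0.10).

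Cells were thinned to 200000 reads before shares of cells with reads were taken. Intervals are exact (Clopper-Pearson) and cover counting error only, since reads carry no molecular identifiers. The members and gene lists were chosen with earlier results of these data known. The 9 members were named in every comparison, and list genes where they passed between cTEC and mTEC or between ages, at most 4 by size per list and comparison, beside genes used to check the labels. For likeness, the 3 genes closest to each member were named.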

Additional observations from a re-analysis of the deposited data

Results flagged for a closer look

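In 3 of the 54 groups of pools or plates that were tested, 1 value lay far from the others by Dixon's criterion, which chance alone meets in about 1 of 20 groups. Kitl was at 43.8 CPM in the 4-week male pool of adult WT mTEChi, against 57.8 to 59.3 CPM in the other pools (n = 4). Newborn plate 17 had the other pair, both in mTEChi: Cxcl12 was at 91.3 CPM against 11.6 to 25.1 on the other plates, and Ly75 at 137.1 CPM against 77.3 to 94.5 (n = 5).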

How the results depend on the processing

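The number of members called depended on the unit of replication. Over plates it was 8 for adult cTEC against all mTEC (5 over pools), 8 against mTEChi (3) and 8 against mTEClo (2), 2 and 8 between ages in mTEChi and mTEClo (0 and 0), 7 between adult mTEChi and mTEClo (4), 1 in each AireKO comparison (0) and 5 for the interaction (0). With DESeq2 it was 8 for adult cTEC against mTEClo, 5 between ages in mTEClo, 1 in AireKO mTEChi and 1 for the interaction. With limma it was 2 for adult cTEC against all mTEC and 7 between adult mTEChi and mTEClo. Leaving out single pools gave 1 to 9, 1 to 3 and 0 to 8 members for adult cTEC against all mTEC, mTEChi and mTEClo, 0 to 5 between ages in mTEClo and 2 to 7 between adult mTEChi and mTEClo. The share of all genes called is not given for limma or for most pools left out, so these counts cannot be read as particular to the members. Newborn cTEC had 8 to 9 members against mTEC, 9 against mTEChi and 4 to 5 against mTEClo without single plates (6 with no fold threshold), and newborn against adult cTEC had 0 under each alternative run.

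The pools were compared unpaired, because the labels do not say whether pools of different sorts came from the same mice. The 2 pairs of pools of the same age and sex correlated at -0.05 and -0.05. That cannot decide the question, since the pairs are few and 1 holds the 12-cell pool. With age and sex as a replicate block, which left 1 residual degree of freedom, 9, 7 and 8 members passed for adult cTEC against all mTEC, mTEChi and mTEClo, 7 between adult mTEChi and mTEClo, 1 and 2 in AireKO mTEChi and mTEClo, and 4 for the interaction, where 2.36%, 4.32%, 1.99%, 8.03%, 0.179%, 0.399% and 0.757% of all genes were called, and the age comparisons in single sorts could not be fitted. Without the plate block the newborn counts were 8, 9 and 4. In AireKO mTEChi the block turned Dll4 to 0.80 and Ccl25 to -0.093.

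Other reversed log2 fold changes lay near 0 and had not passed. Il7 between ages in mTEClo was -0.045 over plates, and Foxn1 between ages in mTEChi ran from -0.096 to 0.14 without single pools. In AireKO mTEChi, Foxn1 was -0.073 in DESeq2, -0.073 with RLE size factors, -0.095 in limma, -0.052 with mTEC pools alone and -0.12 to 0.12 without single pools, and limma gave Kitl -0.058 and Ly75 -0.14. RLE size factors moved the median of all genes by -0.17 there and by 0.13 between adult mTEChi and mTEClo. Of the other fold changes of single members 110 came to pass under an alternative and 34 no longer did. Of the shares of cells with reads, 44 moved and 28 did not when cells were not thinned, and 8 of the group levels moved when every cell had equal weight. Leaving out the 8-week mTEClo pool, chosen after the data were seen, moved the share of adult mTEClo cells at the cTEC median from 46.5% to 17.9% for Il7, and moved 5 of the other 8 shares beyond their 95% interval.

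The share of all genes called moved too. Over pools, in DESeq2 and over plates it was 0.695%, 10.9% and 2.84% for adult cTEC against mTEC, 2.85%, 19.9% and 7.32% against mTEChi, 0.0573%, 6.99% and 1.81% against mTEClo, 0%, 0.102% and 1.91% between ages in mTEChi, 0%, 6.71% and 13.8% in mTEClo, 12.1%, 26.4% and 34.1% between adult mTEChi and mTEClo, 0%, 2.23% and 5.52% in AireKO mTEChi, 0.00249%, 0.93% and 0.123% in AireKO mTEClo, and 0%, 0.842% and 4.48% for the interaction. DESeq2 also called 2.2% between ages in cTEC (edgeR 0.305%) and 8.31% between newborn cTEC and mTEClo (edgeR 3.66%). The cause was not tested. Most groups had 1 pool, which limits every comparison of ages and genotypes.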
